A study of Bos taurus with 8 samples.

Results

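The response of bovine aortic endothelial (BAE) cells to leukemia inhibitory factor (LIF) was measured by RNA sequencing. The members are the 4 BAE libraries of a series of 8, chosen by their labels: 2 from cells given LIF at 10 ng/ml for 6 h and 2 from cells given vehicle for the same time. All were primary cells of 1 commercial lot and were kept for 3 h in assay medium with 1% calf serum before treatment. The other 4 libraries come from bovine choroidal endothelial (BCE) cells with the same treatments in medium with 10% serum, and they are used here to set beside the BAE values and to test the difference between the responses. The study's methods give 2 biological replicates per condition. The comparison asks which genes LIF changes in aortic endothelium, which the study set beside choroidal endothelium.

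LIF is a cytokine of the IL-6 family. It binds a receptor made of LIFR and gp130, and the receptor's Janus kinases phosphorylate STAT3, which then enters the nucleus and switches on target genes. Among these are inhibitors that turn the signal off again, of which SOCS3 is the best known. In the liver the same route drives acute phase genes, and in endothelium it acts on adhesion molecules.

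The counts of the 4 BAE libraries summed to between 21809450 and 35269335, and 3 counts, the lowest number read here as expression, correspond to 0.0851 to 0.138 CPM of the library totals. The other CPM values given here use totals adjusted by TMM in edgeR. The table gives Ensembl identifiers. A gene name could be given to 110 of them, from the protein matches in a deposited table of genes that changed after LIF in BCE cells. The named genes were thus chosen on BCE libraries and not on the BAE ones. None of the 23 endothelial markers and none of the 30 markers of other cell types looked for could be matched to an identifier. The cell type was therefore taken from the labels and not checked. In bulk RNA fewer cells expressing a gene and less RNA per cell cannot be told apart. Reads shared by near-identical or overlapping genes are uncertain, since neither strand nor multiple mapping is given in the sources used here.

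LIF changed a large part of the transcriptome by small amounts. Of 13034 genes tested, 1774 rose (13.6%) and 1115 fell (8.55%), together 2889 (22.2%), at an adjusted p under 0.05 in edgeR's quasi-likelihood test with Benjamini-Hochberg adjustment. The median log2 fold change was 0.35 among the genes that rose and -0.34 among those that fell. Of the rises 70.7%, and of the falls 73.6%, were under 0.5 on the log2 scale. A change of at least 2-fold was called upward in 169 genes and downward in 75, and one of at least 4-fold in 29 and 18. The median over all tested genes was -0.004 after TMM scaling, and changes are relative to it. DESeq2's test called 1920 genes, with 642 falls in all and 38 falls of at least 2-fold.

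**Figure D1:**
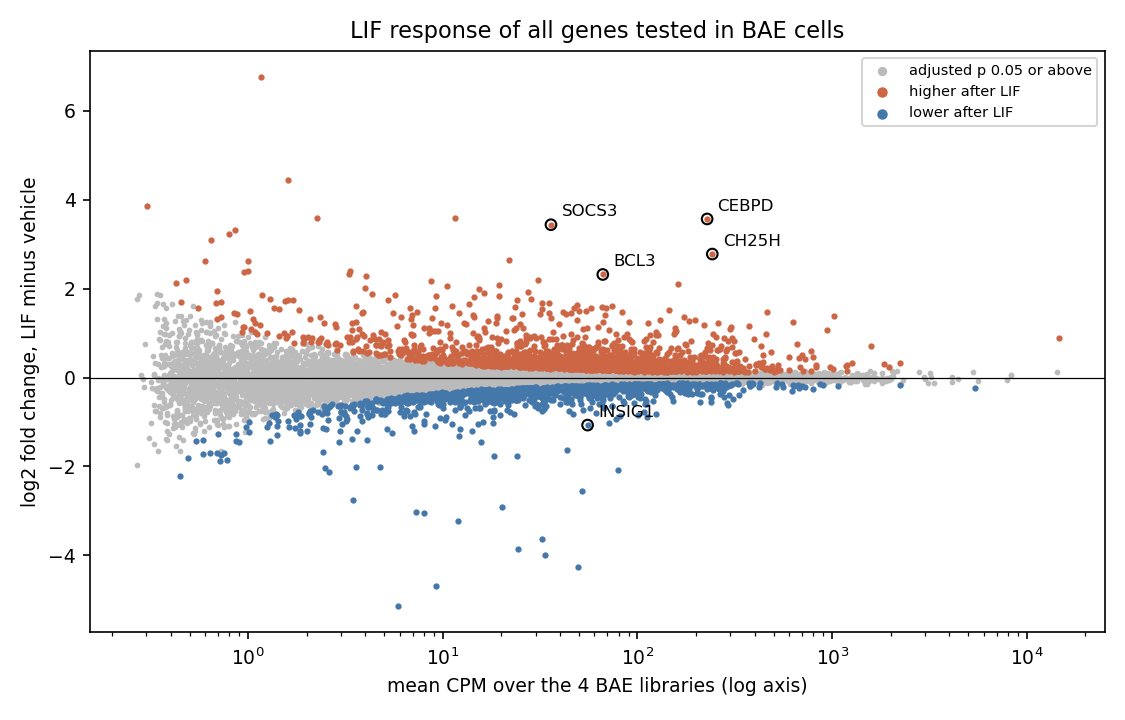
Log2 fold change after LIF (LIF minus vehicle) against the mean CPM of the 4 BAE libraries on a log axis, 1 point per gene tested, with genes that rose in red, genes that fell in blue and the others in grey. Ringed genes are named: CEBPD, SOCS3, CH25H and BCL3 lie between 2.32 and 3.57 and INSIG1 at -1.07.

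How often a gene was called depended on its level. Among genes under 1 CPM, 2.13% rose and 1.55% fell, with a median standard error (SE) of the log2 fold change of 0.473. At 1 to 10 CPM the shares were 5.72% and 7.19%, with a median SE of 0.184. At 10 to 100 CPM they were 16.4% and 9.77% (0.0758), and at 100 CPM and above 22.6% and 10.2% (0.0453). Rises therefore outnumbered falls above 10 CPM and not between 1 and 10 CPM. The SE fell with level, so smaller changes could be detected in the abundant genes.

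One vehicle library stood apart for a small set of genes, and this touches the largest falls. In vehicle 1, 16 genes with at least 5 CPM there lay over 3 times above each of the other 3 BAE libraries, and by the same rule no gene did so in any of the others. The 16 took 0.106% of the counts of vehicle 1 and at most 0.00765% elsewhere. All 16 were called lower after LIF, and none of them has a name. For ENSBTAG00000043582, CPM scaled over all 8 libraries was 126 in vehicle 1 and 4.58 in vehicle 2, against 3.73 and 4.43 in the LIF libraries. Its groups did not overlap, but vehicle 2 lay close to the LIF libraries. Without vehicle 1, none of the 16 was called lower, 1 was called higher, and 12 changed sign. Of the 20 largest called falls, 14 belonged to this set and 11 had overlapping groups, while none of the 20 largest rises overlapped. Of the other 59 falls of at least 2-fold, 41 were still called without vehicle 1.

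**Figure D2:**
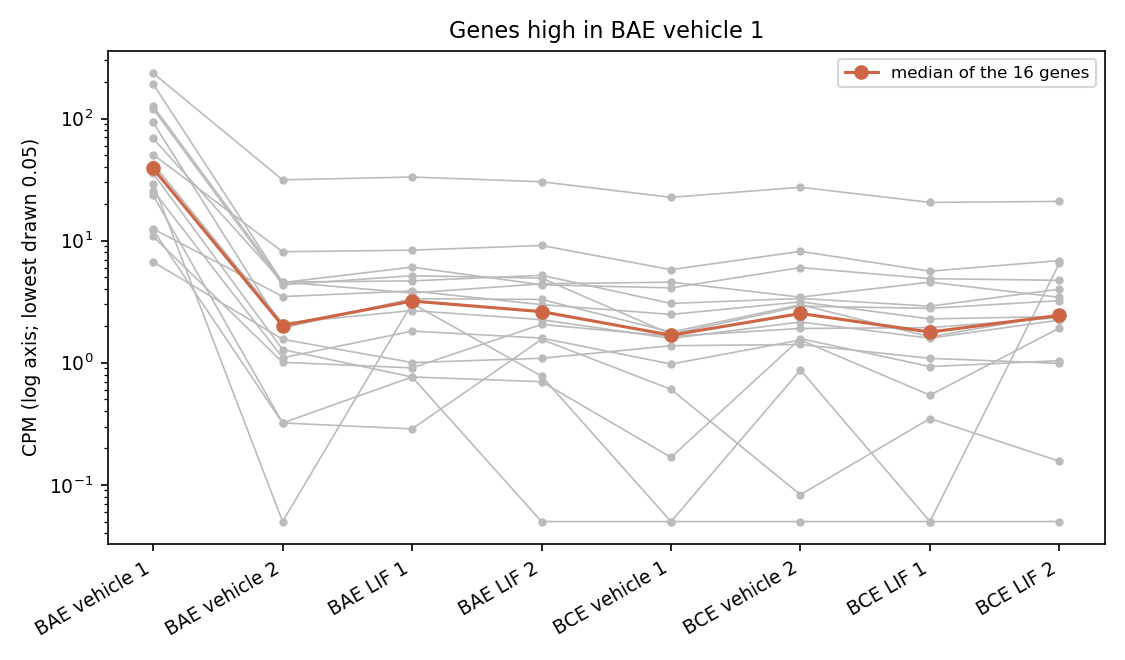
CPM of the 16 genes in each of the 8 libraries, on a log axis with the scale set over all 8, 1 grey line per gene and their median in red. The median was 39.1 in vehicle 1 and between 1.68 and 3.20 in the other 7 libraries.

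The unnamed genes given next were taken among those whose groups did not overlap. Agreement of their replicates was thus a condition of the choice. The largest rise without a name was that of ENSBTAG00000047370, with 1 and 0 counts in the vehicle libraries and 32 and 82 in the LIF libraries. Its vehicle libraries lie below the floor of 3 counts. ENSBTAG00000006136 had 69 and 35 counts with vehicle and 468 and 540 with LIF, a log2 fold change of 3.58 (SE 0.137). In the BCE libraries it had 0, 0, 1 and 0 counts. Among the falls, ENSBTAG00000013881 went from 85.0 and 92.4 CPM to 14.3 and 15.6 (log2 fold change -2.56, SE 0.0732, edgeR quasi-likelihood adjusted p = 4.26e-13).

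Of the 110 named genes, 106 passed the filter on low counts, and 79 of these rose, 20 fell and 7 were not called. STC1, CELF4, SYBU and GPRIN3 were too low to test in BAE cells. The median log2 fold change of the 106 was 0.68, against -0.004 for all genes tested. The groups did not overlap for 101 of the 106, where 59.4% of all genes tested did not overlap. Of the named genes with a positive LIF effect in the BCE libraries, 83 were tested here, and 78 rose, 2 fell and 3 were not called. Of those with a negative effect there, 23 were tested, and 18 fell, 1 rose and 4 were not called.

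**Figure D3:**
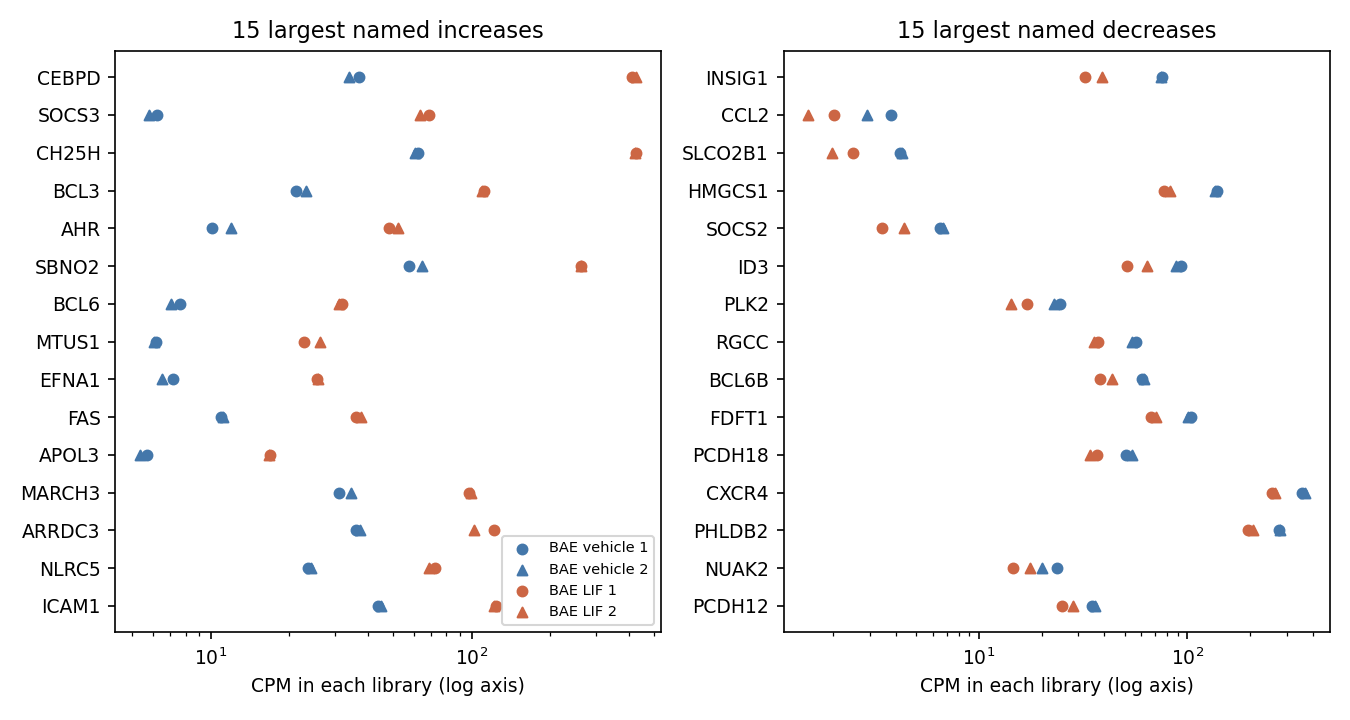
CPM in each of the 4 BAE libraries, on a log axis, for the 15 largest rises (left) and the 15 largest falls (right). These were chosen among named genes called, not overlapping and with a mean of at least 1 CPM. Circles are replicate 1 and triangles replicate 2, vehicle in blue and LIF in red. That the groups do not overlap follows from the choice.

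The signaling route itself changed in its factors and inhibitors. STAT3, the factor LIF acts through, stood at 163 and 164 CPM with vehicle and at 327 and 321 with LIF (log2 fold change 0.99, SE 0.0415). SOCS3, the inhibitor of gp130, went from 6.23 and 5.79 CPM to 68.6 and 63.1, a log2 fold change of 3.44 (SE 0.0875, edgeR quasi-likelihood adjusted p = 1.01e-13). SOCS2, which restrains growth hormone signaling, moved the other way, from 6.48 and 6.71 CPM to 3.43 and 4.37 (-0.75, SE 0.160). Of 33 STAT3 targets looked for, STAT3 included, 12 have a name here, and all 12 rose, with a median of 1.60. Of all genes tested 13.6% rose and of the named genes 79 of 106, and names exist only for genes chosen by their LIF response in BCE cells, so these counts say nothing particular to a group.

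Acute phase regulators held the largest named change. CEBPD, a transcription factor of the acute phase response, stood at 37.0 and 33.7 CPM with vehicle and at 413 and 428 with LIF, which is 11.8-fold and a log2 fold change of 3.57 (SE 0.0531, edgeR quasi-likelihood adjusted p = 9.01e-17). BCL3, a nuclear IκB protein, rose from 21.2 and 23.2 to 112 and 109 CPM. SBNO2, a transcriptional co-regulator, rose from 57.6 and 64.6 CPM to 262 and 261. In each the 2 replicates lay close together. Groups that do not overlap were a condition of choosing these genes, so their separation adds no support.

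Among the other transcription factors and chromatin proteins, 17 of 20 rose, 1 fell and 2 were not called, beside 79 of 106 over all named genes tested. AHR, a ligand-activated factor of xenobiotic metabolism, went from 10.1 and 12.0 to 48.3 and 52.2 CPM (log2 fold change 2.20). BCL6, a transcriptional repressor, went from 7.63 and 7.02 to 31.9 and 30.9 CPM (2.09), while its relative BCL6B fell from 60.9 and 61.6 to 37.9 and 43.6 CPM (-0.58). The AP-1 members FOSL2 and JUNB rose by 1.30 and 1.17, ETS2 by 1.46, MYC by 0.89 and HIF1A, the oxygen-regulated factor, by 0.62. MEOX2, a homeobox factor, and SNAPC1, of the small nuclear RNA transcription complex, were not called, with values of -0.27 and 0.00.

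Of 8 cytokine and death receptors, their ligands and CD14, 6 rose, 1 fell and 1 was not called. Over all named genes tested 79 of 106 rose. FAS, the death receptor, went from 10.9 and 11.1 to 35.9 and 37.7 CPM (log2 fold change 1.74, SE 0.0833). IL4R rose by 1.42, and OSMR, which pairs with gp130 for oncostatin M, by 1.20. TNFRSF1A, the main TNF receptor, rose by 0.83 from 226 and 227 to 396 and 407 CPM, LTBR by 0.63 and CD14 by 1.05. IL7R fell by 0.31 on the log2 scale, a call lost without LIF replicate 1 (adjusted p = 0.0552, edgeR). The TNF-family ligand TNFSF18 had a value of 0.60 and was not called, with 1.40 and 1.18 CPM against 2.16 and 1.82.

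Genes of antigen presentation and innate defence rose, 4 of 4, beside 79 of 106 over all named genes tested. Of the named genes with a positive LIF effect in BCE cells, as these have, 78 of 83 tested rose. NLRC5, the transactivator of MHC class I genes, went from 23.7 and 24.2 to 72.4 and 68.3 CPM (log2 fold change 1.56), and the peptide transporter TAP2 from 27.0 and 27.5 to 35.8 and 35.3 (0.38). APOL3 rose by 1.61 and the ubiquitin ligase TRIM25 by 0.98. Of 4 genes of leukocyte adhesion and chemotaxis 2 rose and 2 fell, each in the direction it had in BCE cells. Of the named genes with a negative LIF effect in BCE cells, 18 of 23 tested fell. ICAM1, which binds leukocyte integrins, went from 43.6 and 45.0 to 124 and 122 CPM (1.47, SE 0.0512), and SELP, P-selectin, rose by 0.89. The chemokine CCL2 fell from 3.80 and 2.89 to 2.02 and 1.52 CPM (-0.95, SE 0.230), and the chemokine receptor CXCR4 from 356 and 366 to 255 and 263 CPM (-0.48). CCL2 was no longer called without vehicle 1 (adjusted p = 0.122, edgeR) or without LIF replicate 2 (0.0798).

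Sterol genes fell apart from CH25H and VLDLR. CH25H, which makes 25-hydroxycholesterol, an inhibitor of sterol synthesis, went from 62.4 and 60.7 CPM to 425 and 421 (log2 fold change 2.78, SE 0.0449, edgeR quasi-likelihood adjusted p = 1.66e-16). INSIG1, which holds the sterol-sensing machinery in the endoplasmic reticulum, fell from 75.5 and 74.7 to 32.4 and 39.1 CPM (-1.07, SE 0.0749). The synthesis enzymes HMGCS1 and FDFT1 fell by 0.78 and 0.56 on the log2 scale. VLDLR, a lipoprotein receptor, rose by 0.50. Of the 34 sterol genes looked for only 5 have a name, 1 of which rose and 4 of which fell, with a median of -0.56. Among all 106 named genes tested 79 rose and 20 fell. Of those with a negative LIF effect in BCE cells, as the 4 falls have, 18 of 23 tested fell.

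Of 10 tested genes of angiogenesis and the vascular matrix, 7 rose, 2 fell and 1 was not called, beside 79 rises among all 106 named genes tested. EFNA1, an Eph receptor ligand, had the largest value, going from 7.15 and 6.49 to 25.5 and 25.8 CPM (log2 fold change 1.90, SE 0.0960). VEGFC, a growth factor of lymphatic vessels, went from 239 and 229 to 367 and 386 CPM (0.69), and THBS2, an inhibitor of vessel growth, from 482 and 507 to 842 and 816 (0.75). PDGFC, ITGAV and the heparan sulfate proteoglycan GPC1 rose by 0.37, 0.47 and 0.34. The adhesion molecules THSD1 and PCDH12 fell by 0.20 and 0.40 on the log2 scale.

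The inhibitors of helix-loop-helix factors moved apart. ID1 went from 25.6 and 23.1 to 65.0 and 68.2 CPM (log2 fold change 1.45), and ID3 from 93.1 and 88.1 to 51.2 and 64.1 CPM (-0.65). LRRC32, which holds latent TGF-beta, rose by 0.66, and BAMBI, a decoy receptor of that family, was not called, with a value of -0.07. In growth control and stress, 5 of 9 rose and 4 fell, beside 79 rises and 20 falls among all 106 named genes tested. GADD45G, a growth arrest gene, had 13 and 5 counts with vehicle and 33 and 44 with LIF (2.38, SE 0.398), and DESeq2 gave it no adjusted p. MTUS1, a growth suppressor, rose by 2.00. The kinase PLK2 and the cell cycle regulator RGCC each fell by 0.60, and NUAK2 by 0.45 on the log2 scale, a call lost without vehicle 1 (adjusted p = 0.0503, edgeR) or without LIF replicate 1 (0.0623).

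Metallothionein MT2, which binds zinc and copper, went from 637 and 496 to 1449 and 1504 CPM (log2 fold change 1.38). Its name rests on a sheep protein match with an expect value of 3.98e-06, the weakest match among the named genes. SOD2, the mitochondrial superoxide dismutase, rose by 0.36, a call lost without vehicle 2 or LIF replicate 2 (adjusted p = 0.0722 and 0.0582, edgeR) and with DESeq2's test (0.0557). The nucleoside transporter SLC29A1 rose from 603 and 615 to 1253 and 1289 CPM (1.06) and the vitamin C transporter SLC23A2 by 1.24. SLCO2B1, an organic anion transporter, fell from 4.19 and 4.25 to 2.49 and 1.97 CPM (-0.93). The ubiquitin ligase MARCH3 and the arrestin ARRDC3 both rose by 1.60.

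All 4 genes of autophagy and membrane traffic rose, beside 79 of 106 over all named genes tested. Of the named genes with a positive LIF effect in BCE cells, as these have, 78 of 83 tested rose. The other counts in this paragraph stand beside the same shares. MAP1LC3B, the autophagosome protein LC3B, went from 288 and 274 to 502 and 520 CPM (log2 fold change 0.86), and RAB11FIP1, of recycling endosomes, rose by 1.02. Both translation genes rose, the RNA helicase DDX21 by 0.70 and the threonyl-tRNA synthetase TARS by 0.65. All 5 enzymes rose, from 0.50 for DSE, an epimerase of dermatan sulfate, to 0.97 for CHST2, a sulfotransferase. Of 8 cytoskeleton and adhesion genes 5 rose, 2 fell and 1 was not called, and the actin-binding SYNPO had the largest rise there (0.72). Of 4 tested genes of G protein signaling and neuronal function 3 rose and 1 fell. Among them the peptide neurotensin, NTS, went from 108 and 106 to 133 and 138 CPM (0.34).

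**Figure D4:**
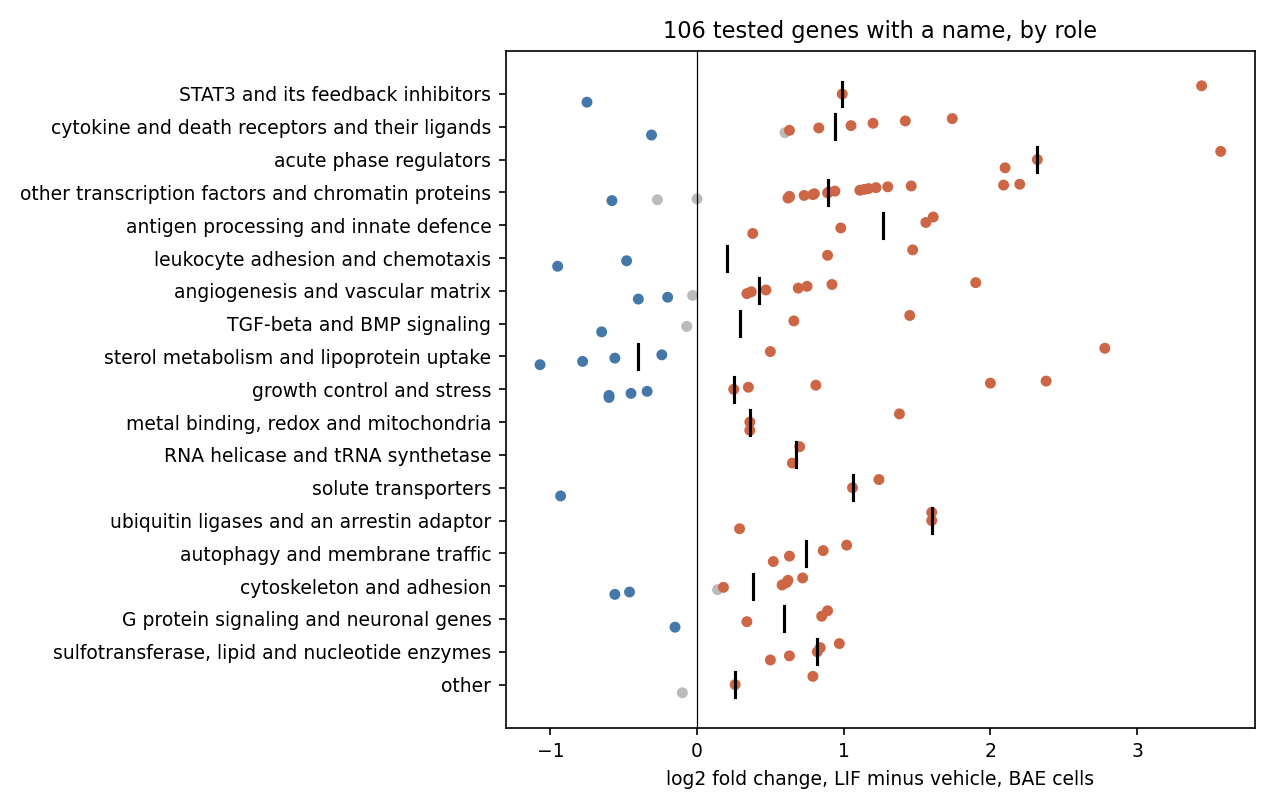
Log2 fold change after LIF of the 106 named genes tested, grouped by role, 1 point per gene, red where called higher, blue where called lower and grey where not called. Black bars are group medians, from -0.40 for sterol metabolism and lipoprotein uptake to 2.32 for acute phase regulators.

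The responses of both cell types were compared as an interaction over all 8 libraries. Cell type and serum (1% against 10%) changed together and cannot be told apart. Of 13646 genes tested, 344 (2.52%) had a more positive LIF effect in BAE cells and 158 (1.16%) a more negative one. With 1 library left out, the 344 ranged from 194 (without BAE LIF replicate 1) to 647 (without BCE vehicle replicate 1). Of the 110 named genes, 45 were more positive and 6 more negative in BAE cells. These genes were selected by their response in the BCE libraries, so the count is a description.

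SOCS3 rose by 3.44 in BAE and 1.21 in BCE cells, a difference of 2.21 (SE 0.132, edgeR quasi-likelihood adjusted p = 1.05e-07), and CEBPD by 3.57 and 1.79 (difference 1.74). BCL6 and AHR differed by 1.40 and 1.31. CH25H did not pass, at 2.78 and 2.46 (difference 0.29, SE 0.155). PCDH18, a protocadherin, fell in BAE cells from 50.7 and 53.9 to 36.8 and 34.1 CPM (-0.56) and rose in BCE cells (0.64), a difference of -1.23 (SE 0.0968). INSIG1 and HMGCS1 fell further in BAE than in BCE cells, by 0.60 and 0.31 on the log2 scale.

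**Figure D5:**
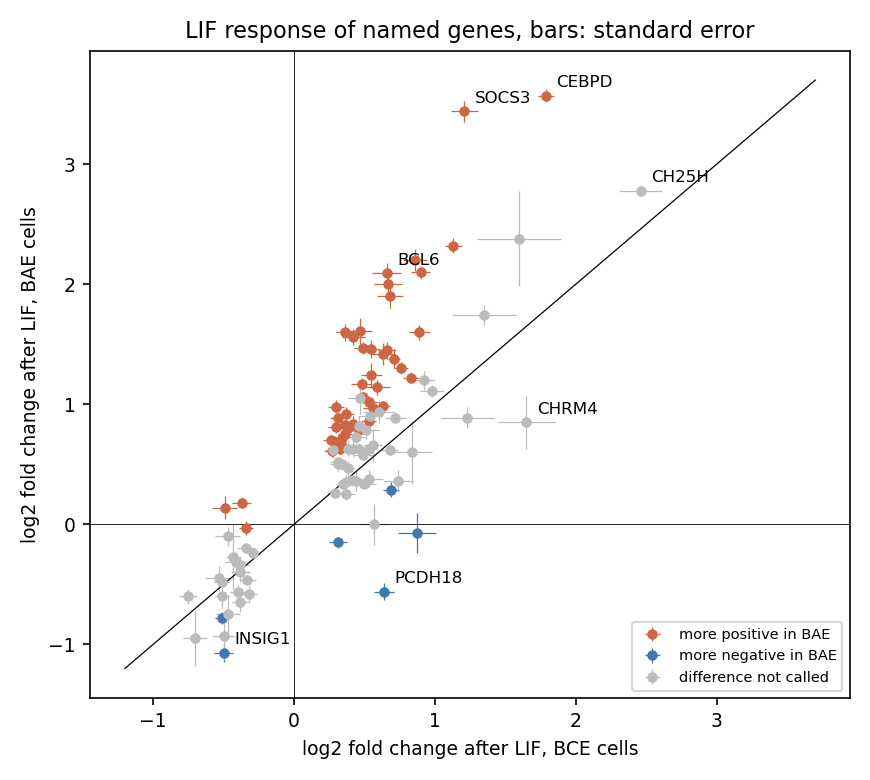
Log2 fold change after LIF in BAE cells (vertical) against BCE cells (horizontal) for the 106 named genes tested in BAE cells, with standard errors as bars and the line of equal response. Red genes were more positive in BAE cells, blue ones more negative, and SOCS3 lies at 3.44 and 1.21.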

How the data were processed

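Raw counts per gene, without normalization, were deposited by the authors, who per the study's methods mapped the read pairs to bovine build UMD 3.1 with TopHat (version 2.0.12, on Bowtie2 version 2.2.3) and counted them with HTSeq (version 0.6.1). Groups came from the sample labels. The table deposited for the BAE comparison is a copy of the BCE table. The fold changes, group means and p-values of the authors' comparisons it holds were not used. Only the identifiers and protein matches of the BCE table were read, and they name 110 of its 120 rows. Names are those of the best protein match, often in another species.

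The tests used edgeR version 4.0.16 under R version 4.3.3: filterByExpr (minimum count 10, total 15), TMM scaling, quasi-likelihood tests, and Benjamini-Hochberg adjustment over all genes tested at a threshold of 0.05. The interaction used all 8 libraries. Standard errors were derived from the log2 fold change and the F statistic. The tests were tested on simulated counts with known changes. DESeq2 (version 1.42.0), other scaling, filters, a replicate block and each library left out were alternatives, and a robust spread and a restriction to non-overlapping groups were added after seeing the data.

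The members and gene lists were chosen with earlier results of these data known. The genes named are the 15 largest rises and falls among named genes called, not overlapping and with a mean of at least 1 CPM, genes the study discusses, and called members of fixed lists with members showing a list's range. Genes named outside that rule, such as the unnamed identifiers, were chosen after their values were seen. Some named genes enter the counts but are not reported here by name. CTSL, CTSB, CCNA2, CCNB1 and PIM1 could not be matched to an identifier here, so whether they changed was not looked at. A planned promoter motif search was not run and no sequence is shown, since no sequence table was used here.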

Additional observations from a re-analysis of the deposited data

Results flagged for a closer look

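The LIF effect differed between BAE and BCE cells in 50 of the named genes given here, by edgeR's quasi-likelihood test of the interaction at an adjusted p under 0.05. The values are log2 differences, the effect in BAE cells minus that in BCE cells. The serum of the medium changed with the cell type, and their parts cannot be told apart. The genes were selected on the BCE libraries. Alternatives for single genes covered the BAE effect only, so how each difference held under them was not tested. The adjusted p of ZCCHC14 and LTBR lay near the threshold, at 0.0428 and 0.0411 (edgeR quasi-likelihood test).

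The effect was more positive in BAE cells by at least 1 in SOCS3 2.21, CEBPD 1.74, BCL6 1.40, AHR 1.31, MTUS1 1.30, ARRDC3 1.21, EFNA1 1.19, SBNO2 1.17, BCL3 1.16, NLRC5 1.10 and APOL3 1.10. It was more positive by 0.5 to 1 in ICAM1 0.95, ETS2 0.87, ID1 0.76, IL4R 0.76, MARCH3 0.68, JUNB 0.66, SLC23A2 0.66, TRIM25 0.65, MT2 0.63, RAPH1 0.60, MYC 0.55, SLC29A1 0.54, PLEKHG1 0.52, HIVEP2 0.52, TMEM204 0.52 and FOSL2 0.51. It was more positive by less than that in MIDN 0.48, RAB11FIP1 0.46, TNFRSF1A 0.44, DDX21 0.41, ENTPD7 0.39, CHST2 0.38, ELF2 0.38, VEGFC 0.37, IRF2BPL 0.36, THBS2 0.36, SYNPO 0.35, STAT3 0.33, SWAP70 0.31, MAP1LC3B 0.30, ZCCHC14 0.29, TARS 0.28 and LTBR 0.27. It was more negative in BAE cells in PCDH18 -1.23, BAMBI -0.97, INSIG1 -0.60, RGS3 -0.49, NEDD4L -0.43 and HMGCS1 -0.31.

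In PCDH18 and RGS3 the effect was a called fall in BAE cells, at -0.56 and -0.15, and a positive value in BCE cells, at 0.64 and 0.31. For PLEKHG1 the BAE value was a called rise of 0.18 and the BCE value -0.37. The BAE calls of both RGS3 and PLEKHG1 were lost under some alternatives, RGS3 with DESeq2's test (adjusted p = 0.0539) and PLEKHG1 without vehicle 1 (adjusted p = 0.0698, edgeR), among others.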

How the results depend on the processing

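The 2889 genes called after LIF in BAE cells became 1920 with DESeq2's test, of which 1912 were shared, and ranged from 1807 (without LIF replicate 1) to 2905 with 1 library left out, where the lone library of an arm is assumed to vary like the other group. Without vehicle 1 the count was 2288, and falls of at least 2-fold went from 75 to 57. Without a filter it was 3251, with all 8 libraries in one fit 2461, with the robust spread 3053 and with non-overlapping groups only 2873, the last a smaller set by construction. The 502 genes whose effect differed between the cell types became 889 without a filter, and ranged from 261 (without BAE LIF replicate 1) to 948 (without BCE vehicle replicate 1) with 1 library left out. The libraries whose loss moved it by over 1.5 times also include BAE vehicle 1 (281), BAE LIF 2 (293), BCE LIF 1 (292) and BCE LIF 2 (272). The cause was not tested.

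Deviations of same-numbered BAE libraries had a correlation of -0.00618. With 2 libraries per group this is a single comparison, so it cannot show whether the replicate numbers pair the samples. The numbers are those of the sample titles, and the count columns are numbered differently. With the replicate block 2887 genes were called in BAE cells, 2740 of them shared, and 669 in the interaction.

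Of 1230 values of 103 named genes under alternatives, 1205 kept direction and side of the threshold and 21, in 8 genes, lost the call. The 4 that reversed were of genes not called. With 1 library left out, BAMBI ranged from -0.148 to 0.0241 (vehicle 2 and vehicle 1 left out), SNAPC1 from -0.212 to 0.191 (vehicle 1, vehicle 2; 0.0283 without LIF 1) and RAPH1 from -0.0021 to 0.261 (vehicle 1, vehicle 2). Depth limits genes under 1 CPM most.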
